A study of Mus musculus with 4 samples.

Results

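The genes described here are 4 enzymes of cholesterol synthesis, Fdps, Sqle, Cyp51 and Msmo1 (older symbol Sc4mol), found by symbol among 9077 named genes on CodeLink bioarrays of mouse renal cortex. Each has 1 probe, and all 4 were found. They were selected on measured values from these same arrays, so their levels and differences are given as a description, with no test.

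RNA came from kidney cortices of C57BL/6J males aged 20 weeks, either ICAM-1-/- (KO) or ICAM-1+/+ (WT). ICAM-1 is an endothelial adhesion molecule that leukocytes bind on leaving the blood. The groups were DM-KO, ICAM-1-/- mice made diabetic by 200 mg/kg streptozotocin, a toxin of pancreatic beta cells, and ND-KO, ICAM-1-/- mice given citrate buffer. The WT groups were DM-WT, given 200 mg/kg streptozotocin, and ND-WT, given citrate buffer. Injections were made at 8 weeks of age, 12 weeks before the kidneys were taken. The knockout mice were bought as a line on the same background, and the mutant allele is not given in the sources used here. Each group had 5 mice but 1 array, and whether RNA was pooled is not given either. A difference between a pair of arrays therefore has no replicate check.

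Cholesterol is built from acetyl-CoA through mevalonate and isoprenoid diphosphates to squalene, which is oxidised, closed into lanosterol and trimmed to cholesterol. In mammalian cells, low sterol in the endoplasmic reticulum lets SREBP-2 travel to the Golgi, where it is cleaved. The freed fragment activates most genes of the pathway through sterol regulatory elements, usually with help from NF-Y, which binds CCAAT boxes, and Sp1, which binds GC boxes. Fdps makes farnesyl diphosphate, the branch point between sterols and other isoprenoids. Sqle, squalene epoxidase, catalyses the first oxygen-requiring step of sterol synthesis. Cyp51 is the cytochrome P450 that removes the methyl group at carbon 14 of lanosterol. Msmo1 is an oxidase that starts removal of the methyl groups at carbon 4.

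Promoter sequence is shown because all 4 genes are textbook targets of SREBP-2. Whether SREBP-2 had a part in their differences between arrays was not tested. The RefSeq promoter table used here (build GRCm38.p6) held windows for 2 of the 4 genes. The 250 bases before each annotated start are printed on the gene's strand. Capitals mark matches on either strand to TCACNNCA, CCAAT or GGGCGG.
Msmo1, chr8:64733579-64733828, minus strand: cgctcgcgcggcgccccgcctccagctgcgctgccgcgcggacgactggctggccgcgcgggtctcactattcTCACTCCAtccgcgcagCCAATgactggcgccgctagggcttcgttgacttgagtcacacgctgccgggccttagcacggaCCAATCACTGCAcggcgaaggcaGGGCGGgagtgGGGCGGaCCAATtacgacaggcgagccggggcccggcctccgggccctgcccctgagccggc
Cyp51, chr5:4104698-4104947, minus strand: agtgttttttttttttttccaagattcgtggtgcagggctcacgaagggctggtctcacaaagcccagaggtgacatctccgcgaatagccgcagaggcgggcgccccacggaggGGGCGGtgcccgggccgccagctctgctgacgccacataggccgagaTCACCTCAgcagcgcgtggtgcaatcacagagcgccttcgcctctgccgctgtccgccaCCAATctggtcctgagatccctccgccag
Neither window held the longer sterol element core TCACNCCAC on either strand, which was found in 1.05% of 32851 windows of that length. TCACNNCA, a shorter form chosen after the windows were seen, matched in Msmo1 from base -177 to -170 and from -92 to -85, counting back from the start, and in Cyp51 from -88 to -81. It was found in 11.4% of windows. CCAAT matched 3 times in Msmo1 and 1 time in Cyp51, against 33.8% of windows with at least 1 match. The Msmo1 CCAAT that begins at base -96 shares its last base with the TCACNNCA match that begins at -92. GGGCGG matched 2 times in Msmo1 and 1 time in Cyp51, against 32.7% of windows. A match is a string of letters and was not tied to binding of any factor.

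The share of the 10032 gene probes with a usable spot was 66.2% on DM-KO, 65.9% on ND-KO, 62.8% on DM-WT and 64.8% on ND-WT. DM-WT stood apart from the other arrays. Bacterial control transcripts reached 0.555 of their ND-WT signal on DM-WT, against 1.22 on DM-KO and 1.27 on ND-KO. In column 48, at the edge of the upper block, 14 of 23 bright probes were more than 2-fold dimmer on DM-WT than on the other arrays. None of the 4 enzymes is printed in columns 44 to 48, but Cyp51 is in column 42 of that block. There the median log2 difference of DM-WT from the other arrays was 0.01 over 55 probes, and Cyp51 was the lowest at -0.61. Icam1 itself was not analysed here, which leaves the genotype labels without a check by the targeted transcript. All 10 proximal tubule markers on the array were usable on all 4 arrays, as were all 7 markers of thick limb, distal tubule and collecting duct. None of the 3 podocyte markers on the array, Nphs1, Podxl and Wt1, was usable on every array. Repeated spots of 1 control probe on 1 array differed by an SD of 0.0959 on the log2 scale, which gives a spread of 0.136 for a difference between 2 spots. That spread covers spot error only, not animals or RNA preparations.

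All 4 enzymes gave usable spots on all 4 arrays. Values below are log2 intensities after background correction and quantile normalization, and net intensity means spot mean minus local background. Because a probe's brightness depends on its sequence, levels are compared between arrays, not between genes.

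Fdps had log2 intensities of 8.69 on DM-KO, 8.07 on ND-KO, 8.25 on DM-WT and 7.94 on ND-WT. Its net intensities were 382 on DM-KO, 229 on ND-KO, 216 on DM-WT and 205 on ND-WT. DM-KO was highest for this enzyme of the isoprenoid branch point, 0.44 above the next array. The other 3 arrays were closer together, with neighbouring levels 0.18 and 0.13 apart, beside the spot spread of 0.136.

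Sqle was the dimmest probe of the 4 enzymes. Its log2 intensities were 7.16 on DM-KO, 6.73 on ND-KO, 6.78 on DM-WT and 6.61 on ND-WT, with net intensities of 100 on DM-KO, 59.2 on ND-KO, 52.1 on DM-WT and 48.8 on ND-WT. As for Fdps, DM-KO alone was high. It stood 0.39 above the next array, while DM-WT and ND-KO were 0.04 apart, less than the spot spread.

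Cyp51, the lanosterol demethylase, had log2 intensities of 9.19 on DM-KO, 9.31 on ND-KO, 8.58 on DM-WT and 9.08 on ND-WT. Net intensities were 554 on DM-KO, 629 on ND-KO, 284 on DM-WT and 521 on ND-WT. Its pattern differed from that of Fdps and Sqle, because DM-WT alone was low and DM-KO was not the highest array. DM-WT lay 0.50 below the next array. The other 3 lay in neighbouring steps of 0.12 and 0.11, both under the spot spread.

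Msmo1, the carbon-4 methyl oxidase, had log2 intensities of 8.32 on DM-KO, 7.90 on ND-KO, 7.47 on DM-WT and 7.61 on ND-WT. The net intensities were 283 on DM-KO, 200 on ND-KO, 111 on DM-WT and 152 on ND-WT. Msmo1 was highest on DM-KO, as Fdps and Sqle were, and lowest on DM-WT, as Cyp51 was, but by less than Cyp51. DM-KO was 0.42 above ND-KO, and both KO arrays were above both WT arrays. DM-WT and ND-WT differed by 0.14, close to the spot spread.

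**Figure D1:**
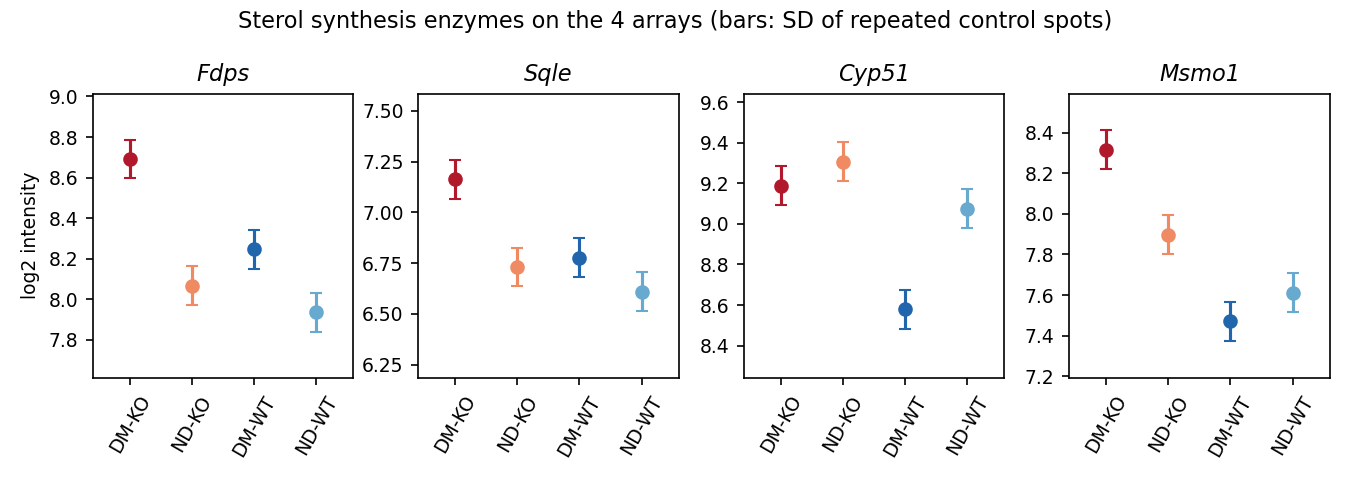
Log2 intensity (vertical axis) of Fdps, Sqle, Cyp51 and Msmo1 on the DM-KO, ND-KO, DM-WT and ND-WT arrays, 1 array per group. Every vertical axis spans the same log2 range, and bars show the SD of repeated control spots on 1 array (0.0959). Fdps and Sqle are highest on DM-KO, and Cyp51 is lowest on DM-WT. Msmo1 is highest on DM-KO and lowest on DM-WT, there only 0.14 below ND-WT.

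The first comparison set diabetic kidneys without ICAM-1 against diabetic kidneys with it. All 4 enzymes were higher on DM-KO than on DM-WT. Msmo1 was 1.80-fold higher (log2 difference 0.85), the 11th highest of 6111 genes usable on both arrays. Cyp51 was 1.53-fold higher (0.61), Fdps 1.36-fold (0.44) and Sqle 1.31-fold (0.39). Their median was 0.53, beside -0.01 over all genes, and 46.8% of genes lay above 0. At least 1.5-fold higher were 2 of the 4, against 0.769% of genes, while 1.06% were at least 1.5-fold lower. These shares describe the arrays, and since the enzymes were selected for such values nothing is read from them.

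Before scaling, the contrast between these arrays was larger, and DM-KO was brighter as a whole, with a median net intensity over all gene probes of 46.3 against 37.7 on DM-WT. Net intensity on DM-KO was 2.56 times that on DM-WT for Msmo1, 1.95 times for Cyp51, 1.77 times for Fdps and 1.93 times for Sqle. In the authors' scaled value table the ratios were 2.08 for Msmo1, 1.58 for Cyp51, 1.43 for Fdps and 1.56 for Sqle. Spots printed within 4 rows and columns of each enzyme had median DM-KO minus DM-WT differences near 0. For the 46 spots around Msmo1 the median was -0.04 and the highest 0.36, below Msmo1 itself, and for the 50 around Fdps they were -0.04 and 0.33, below Fdps. For the 46 around Cyp51 they were 0.00 and 0.71, and for the 41 around Sqle 0.04 and 0.44, so at least 1 neighbour stood above each of these enzymes.

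Without diabetes the same genotype contrast was smaller for every enzyme. The log2 difference of ND-KO minus ND-WT was 0.29 for Msmo1, 0.23 for Cyp51, 0.13 for Fdps and 0.12 for Sqle. The values for Fdps and Sqle were under the spot spread of 0.136. None of the 4 reached 1.5-fold, a size that 0.176% of 6258 genes passed upward and 0.447% downward, and 50.7% of genes lay above 0. Neither array of this contrast is DM-WT, the array that stood apart.

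**Figure D2:**
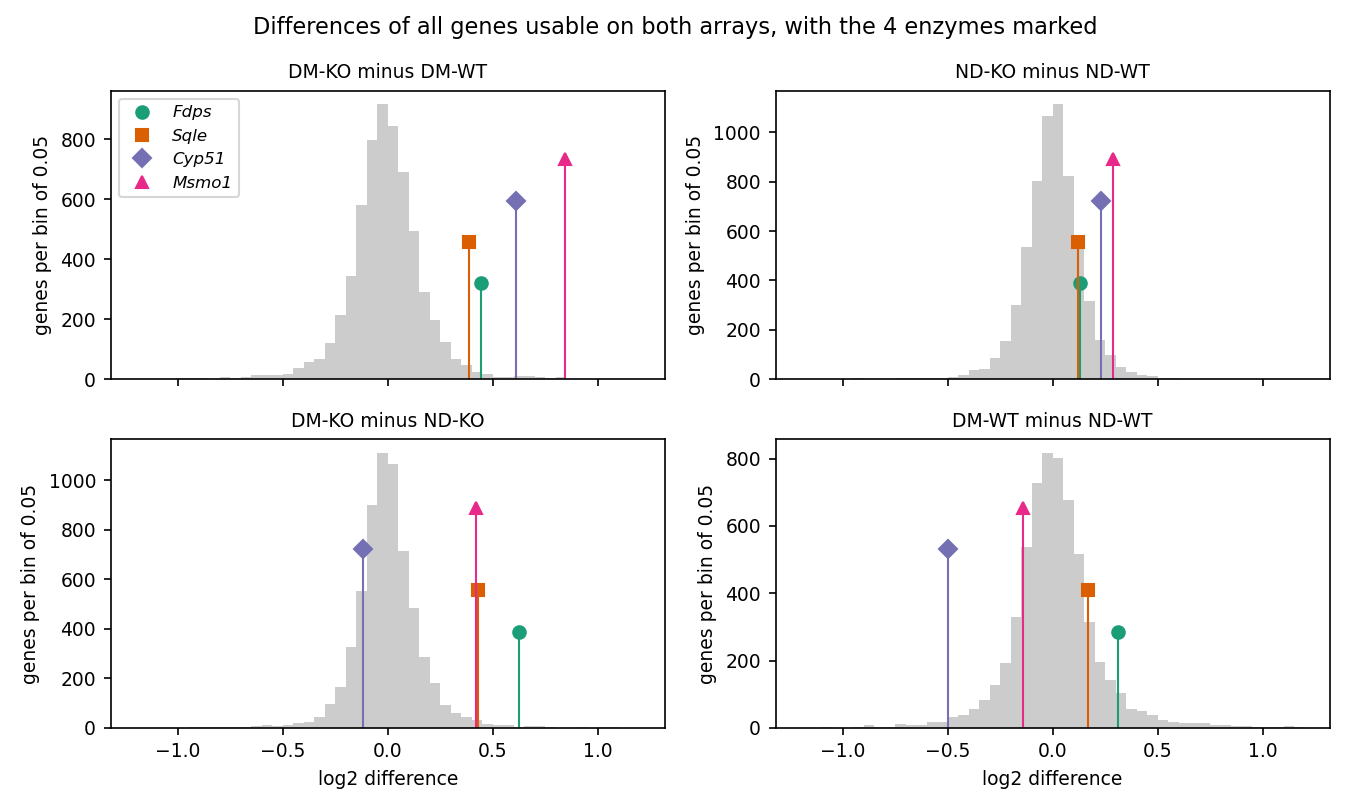
Number of genes (vertical axis) by log2 difference (horizontal axis, bins of 0.05) for 4 comparisons between arrays, with vertical lines at Fdps, Sqle, Cyp51 and Msmo1 (line height has no meaning). The 4 enzymes lie at 0.39 to 0.85 for DM-KO minus DM-WT and at 0.12 to 0.29 for ND-KO minus ND-WT.

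Diabetes was compared within each genotype. The KO contrast shares the DM-KO array with the comparison of DM-KO with DM-WT, so a high DM-KO value enters both. It does not use the DM-WT array. Diabetic KO cortex had 1.54-fold more Fdps signal than nondiabetic KO cortex (log2 difference 0.62), the 31st highest of 6339 genes. Sqle was 1.35-fold higher (0.43) and Msmo1 1.34-fold higher (0.42), whereas Cyp51 had a difference of -0.12. Of the 4, Fdps passed 1.5-fold, against 0.536% of genes higher and 0.505% lower by that much.

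In WT mice the same enzymes split. Fdps differed by 0.31 between DM-WT and ND-WT and Sqle by 0.17, while Cyp51 differed by -0.50 and Msmo1 by -0.14. Cyp51 was 1.41-fold lower on DM-WT, and 1.49% of 6055 genes lay at or below its value. None of the 4 passed 1.5-fold, beside 1.75% of genes higher and 0.875% lower. Fdps and Sqle thus stood higher on the diabetic array in both genotypes, Cyp51 stood lower in both, and Msmo1 had opposite signs in them. The KO difference of Cyp51 was under the spot spread of 0.136, and the WT difference of Msmo1 was close to it. Before scaling, net intensity on DM-WT was only 1.06 times that on ND-WT for Fdps and 1.07 times for Sqle. DM-WT was dimmer as a whole, with a median net intensity of 37.7 against 43.5 on ND-WT.

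The diabetes difference in KO minus that in WT was above 0 for all 4 enzymes, beside 48.5% of all genes. It was 0.56 for Msmo1, 0.38 for Cyp51, 0.31 for Fdps and 0.26 for Sqle on the log2 scale, with a median of 0.35, beside -0.01 over 5914 genes. The arrays leave no degree of freedom to test this quantity, and all 4 arrays enter it. It equals the genotype contrast with diabetes minus that without, so the smaller genotype contrast without diabetes is the same fact.

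The pathway list held 20 sterol synthesis genes, of which 13 were analysed here, the 4 enzymes and 9 others. Those were Mvk, Fdft1, Tm7sf2, Nsdhl, Hsd17b7, Ebp, Sc5d, Dhcr7 and Erg28, with Mvk at the mevalonate stage, Fdft1 making squalene and the rest acting on or holding together the sterol stages. Between DM-KO and DM-WT, 7 of the 8 others usable on both arrays lay above 0. Their median log2 difference was 0.12, and their differences ran between -0.09 for Dhcr7 and 0.26 for Erg28. None reached 1.5-fold, and all 8 were below 0.39, the difference of Sqle and the smallest of the 4 enzymes. Because the 4 were selected on these arrays, nothing is read from that order. In the authors' scaled value table Fdps was the smallest of the 4, at a ratio of 1.43 against 1.56 for Sqle. Erg28 (0.26), a scaffold of the demethylation complex, Nsdhl (0.24), the dehydrogenase that follows Msmo1, and Tm7sf2 (0.20), a sterol reductase, were the 3 highest.

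Between ND-KO and ND-WT, 5 of 7 others lay above 0, beside 50.7% of all genes, with a median of 0.02. Between DM-KO and ND-KO, 5 of 9 did, beside 47.8% of all genes. Their median was also 0.02, and Fdft1 was highest at 0.26. Between DM-WT and ND-WT, 1 of 7 lay above 0, beside 50.1% of all genes, with a median of -0.14. In that contrast Sc5d, a desaturase, stood at -0.32, Tm7sf2 at -0.29 and Ebp, a sterol isomerase, at -0.19, on the same side as Cyp51 and Msmo1. Dhcr7, the last reductase, was the exception at 0.20. Hsd17b7 was not well above background on either WT array, nor Fdft1 on ND-WT, so their WT contrasts are left out.

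**Figure D3:**
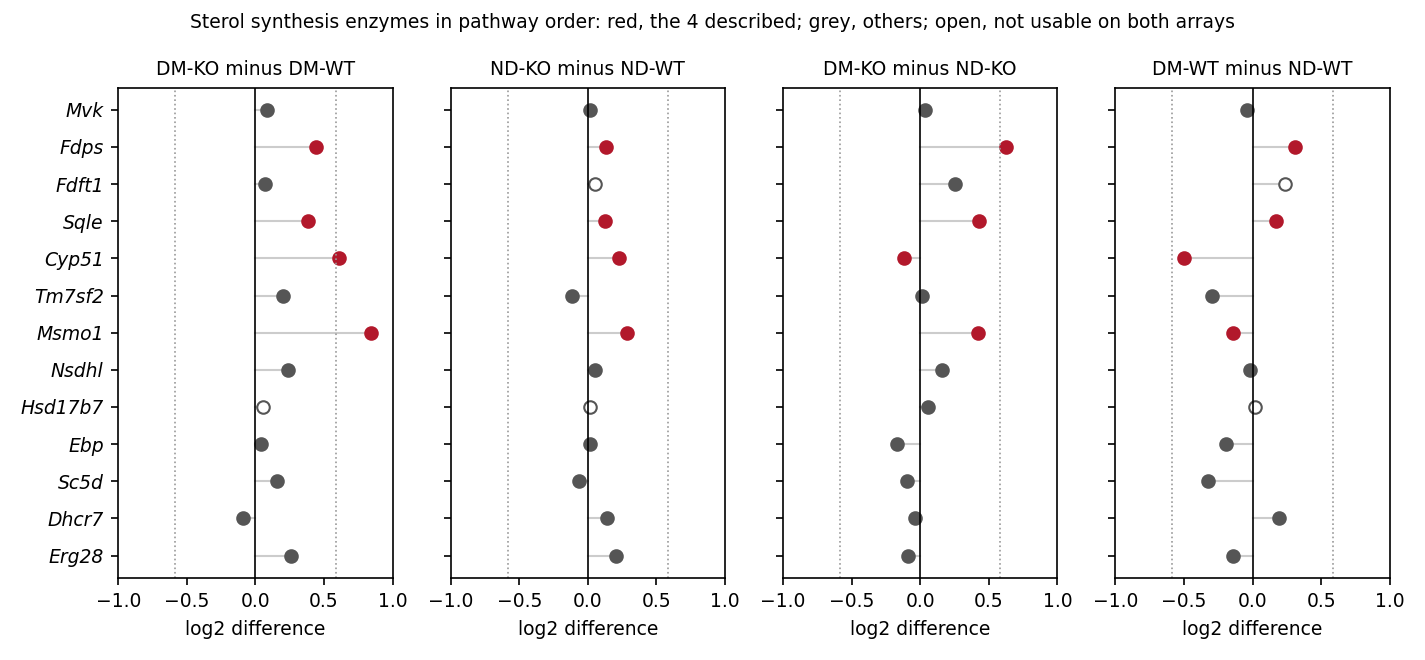
Log2 difference (horizontal axes) of the 13 sterol synthesis genes analysed, listed down the page in pathway order, for 4 comparisons between single arrays. Red points are Fdps, Sqle, Cyp51 and Msmo1, grey points the 9 others, open points genes not usable on both arrays, and dotted lines mark 1.5-fold. In the DM-KO minus DM-WT panel the red points are the 4 highest, and since they were selected on these arrays nothing is read from that.

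The 9 other enzymes were not part of the selection, and they were tested with diabetes and genotype as additive terms over the 4 arrays (limma, 1 residual degree of freedom per gene, Benjamini-Hochberg adjustment over 6512 genes). None of the 9 passed an adjusted p of 0.05 for diabetes or for genotype, while 2 for diabetes and 1 for genotype had an unadjusted p under 0.05. For diabetes the lowest adjusted p in limma was 0.271, for Fdft1 (log2 change 0.25, SE 0.0612), with its value on ND-WT entered although not above background. For genotype it was 0.452, for Erg28 (0.23, SE 0.0624). Over all genes limma called 1 gene for diabetes (0.0154%, 832 at an unadjusted p under 0.05) and 3 for genotype (0.0461%, 592 unadjusted). The residual of each gene comes from its diabetes difference in KO minus that in WT. It mixes array error, differences between animals or pools, and any dependence of diabetes on genotype. Spread between mice within a group was not measured.

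Genes that branch from, regulate or feed the pathway were described in the same way. In the isoprenoid branch, 3 of 4 usable genes lay above 0 between DM-KO and DM-WT, with a median of 0.04. Pdss1, of ubiquinone synthesis, was highest at 0.22. Srebf1 and Srebf2, the genes of the SREBP factors, were not above background on any array. Of the sensing and regulation list, 2 of 5 usable genes lay above 0, and of the NF-Y subunits Nfyb and Nfyc stood at 0.14 each and Nfya at -0.06.

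Cyp51 and other steps of the pathway draw electrons from Por or from cytochrome b5. Cyb5a, the microsomal cytochrome b5, stood 0.32 higher on DM-KO than on DM-WT and Cyb5b 0.30 higher, against -0.08 for Por and -0.17 for Pgrmc1, a haem-binding partner of P450 enzymes. Fatty acid synthesis genes lay above 0 in 7 of 9 cases, with a median of 0.09. Fads2, a desaturase, stood at 0.37 and Acly, which supplies cytosolic acetyl-CoA and is printed within columns 44 to 48 of the upper block, at 0.29.

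Genes that break down, release or carry sterol came next. Between DM-KO and DM-WT, 0 of 3 oxysterol and bile acid genes lay above 0, with Cyp27a1 at -0.52, Cyp7b1 at -0.40 and Cyp39a1 at -0.21, all hydroxylases that act on sterols. Apoe, the lipid-carrying apolipoprotein, stood at -0.63, past 1.5-fold, while the efflux and ester list as a whole had 2 of 5 above 0 and a median of 0.00. Of 9 uptake and transport genes, 2 lay above 0, with a median of -0.08, and Npc1, which exports cholesterol from lysosomes, stood at -0.01 in this contrast and at -0.41 between DM-WT and ND-WT. None of the 50 genes in these pathway lists, the 4 enzymes aside, was called by limma for either factor, and 8 for diabetes and 5 for genotype had an unadjusted p under 0.05. Cyp7b1 for diabetes (-0.79, adjusted p in limma 0.171) had the lowest adjusted p of them.

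Cell type markers also differed between the arrays, and their part in the enzymes' differences was not tested. In whole cortex, fewer cells of a type and less RNA per cell cannot be told apart. The 6 macrophage markers usable on all arrays had a median DM-KO minus DM-WT difference of -0.40 (1 of 6 above 0), with Lyz2 at -0.55 and Ctss at -0.46. Summed intensity of these 6 was 1263 on DM-KO, 984 on ND-KO, 1628 on DM-WT and 936 on ND-WT. Adgre1 was not above background on any array and is not in the sum. Proximal tubule markers summed to 12491 on DM-KO, 14122 on ND-KO, 11689 on DM-WT and 14331 on ND-WT, with 6 of 10 above 0 between DM-KO and DM-WT and a median of 0.18. Aqp1 stood at 0.43, Slc22a6 at 0.41 and Slc22a12 at 0.36 in that contrast, beside 0.44 for Fdps and 0.39 for Sqle. Cubn was the lowest of the 10 markers, at -0.22. Thick limb, distal and collecting duct markers summed to 9839 on DM-KO, 8364 on ND-KO, 11985 on DM-WT and 8267 on ND-WT, with 2 of 7 above 0 and Pvalb at -0.76.

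Adrenal, liver and fat, tissues rich in sterol or lipid metabolism, were checked through their markers. For the adrenal gland, the steroidogenic genes Star, Cyp11a1, Cyp21a1 and Hsd3b1 were not above background on any array. Scarb1 and the medullary genes Th and Pnmt were usable on all 4 arrays and Akr1b7 on 3. The 4 of them had DM-KO minus DM-WT differences between -0.21 for Pnmt and -0.08 for Akr1b7. These 4 summed to 363 on DM-KO, 364 on ND-KO, 403 on DM-WT and 378 on ND-WT. The steroidogenic genes are not in that sum. For liver, Cyp7a1 was not above background on any array, Ttr and Apoa2 were usable on all 4 and Fgb on 3. DM-KO minus DM-WT was -0.53 for Apoa2, which was highest on DM-WT, -0.23 for Ttr and -0.15 for Fgb. The 3 markers other than Cyp7a1 summed to 1357 on DM-KO, 1625 on ND-KO, 1614 on DM-WT and 2117 on ND-WT. For fat, Adipoq and Cfd were usable on ND-KO only. The 6 markers usable on at least 1 array summed to 2232 on DM-KO, 3677 on ND-KO, 2765 on DM-WT and 2876 on ND-WT. ND-KO enters the enzymes' contrasts with ND-WT and with DM-KO, and the part of fat in them was not tested. Lpl, a lipase that the cortex also expresses, had a DM-KO minus ND-KO difference of -1.22.

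Among 407 genes with a log2 range of at least 0.5, the 5 whose centred levels over the 4 arrays lay nearest to the enzymes' mean profile were Tnc, Epcam, Cldn10, Gstp1 and H1f0. Their Euclidean distances were 0.043, 0.114, 0.128, 0.137 and 0.143 log2 units, against 0.205 for Sqle and Msmo1, 0.333 for Fdps and 0.459 for Cyp51 themselves. Tnc, a matrix glycoprotein, had log2 intensities of 6.88 on DM-KO, 6.50 on ND-KO, 6.27 on DM-WT and 6.30 on ND-WT. None of the 5 is a sterol enzyme, but none could be. The 4 enzymes were left out of the 407, and no other sterol enzyme analysed had a range of 0.5. Each of the 5 lay nearer to the mean profile than any of the 4 enzymes did. They were picked as the nearest of 407, so nothing is read from that.

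The enzymes' directions were kept under each of 7 other ways of processing the arrays, in each of the 4 comparisons. Among the 7, leaving out the filter on dim probes could not change them, because it alters only which genes count as usable. For DM-KO minus DM-WT the log2 difference lay between 0.82 and 1.06 for Msmo1, 0.59 and 0.72 for Cyp51, 0.43 and 0.56 for Fdps and 0.39 and 0.65 for Sqle. Msmo1 and Cyp51 stayed past 1.5-fold under all 7, and Sqle passed it under 1, the authors' value table. For DM-KO minus ND-KO, Fdps lay between 0.60 and 0.70 and stayed past 1.5-fold under all 7. Sqle lay between 0.43 and 0.70 there and passed 1.5-fold under 2, the value table and a normexp offset of 16. Cyp51 in DM-WT minus ND-WT lay between -0.68 and -0.48, passing 1.5-fold under 2, and Fdps in that contrast lay between 0.16 and 0.35.

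**Figure D4:**
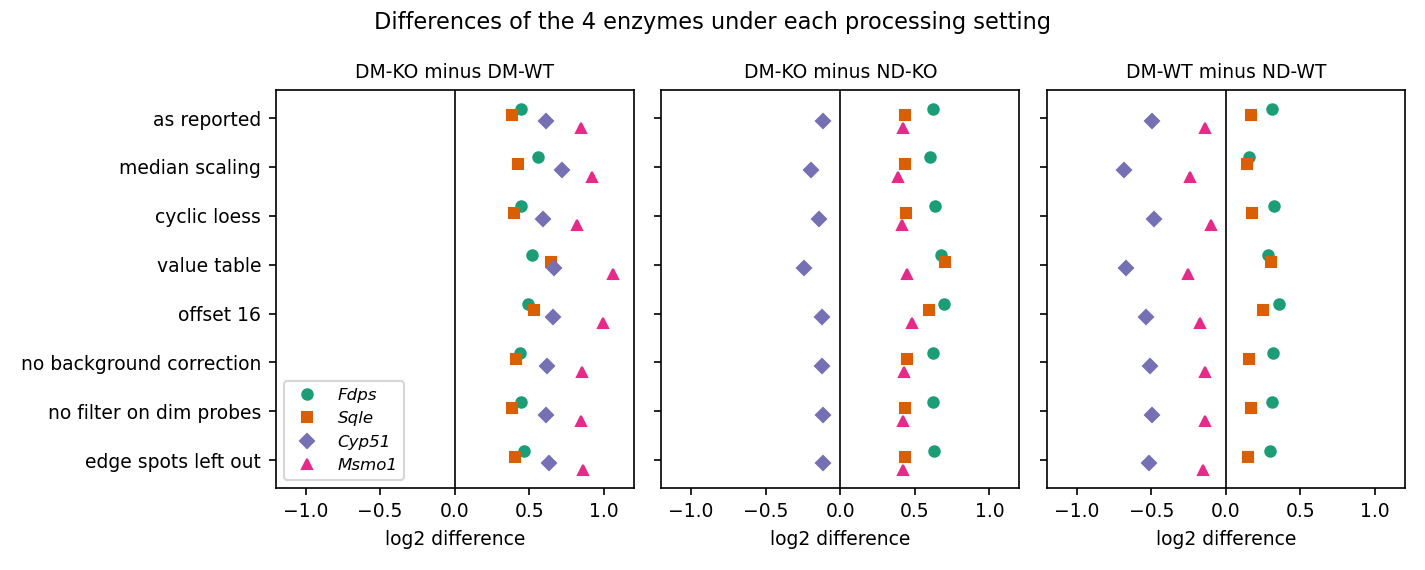
Log2 difference (horizontal axes) of Fdps, Sqle, Cyp51 and Msmo1 under the reported processing (top row) and 7 alternatives (rows below), for 3 comparisons between single arrays. Each symbol stays on 1 side of 0 in every row of its panel.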

How the data were processed

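Biotin-labelled cRNA from renal cortex was hybridised to 1 CodeLink array per group and read with CodeLink Expression Analysis 2.3.2, per the labels' protocols. The deposited scanner tables hold raw mean spot intensity and raw median intensity of the local background, per the file headers. The deposited value table holds intensity that equalled spot mean minus background divided by 1 constant per array (within 0.1% for 99.5% of 8931 compared values). Its column medians were 0.930 on DM-KO, 0.929 on ND-KO, 0.930 on DM-WT and 0.926 on ND-WT. Genes were not centred in it, and how the constants were chosen is not given in the sources used here. Here, intensities were corrected with normexp (offset 50), converted to log2 and quantile-normalized in limma 3.58.1 under R 4.3.3. Poor spots were set to missing, no enzyme's among them. Probes of a gene were averaged, and genes counted as usable where a spot was marked usable. Of 10032 probes, 9209 had 1 symbol, 1 several and 822 none. The additive limma fit used genes usable on at least 2 arrays and was run on simulated data. Those had 1 common spread for every gene and no dependence of diabetes on genotype. They therefore do not show how well the fit works on the arrays here. The enzymes, lists and alternatives were chosen with earlier results of these data known. In each of 15 lists, up to 4 genes with the largest difference in any comparison could be named, and every sterol enzyme. Some genes of these lists are not reported here and enter no list count. The number of arrays limits the precision.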

Additional observations from a re-analysis of the deposited data

Results flagged for a closer look

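Msmo1 differed in opposite directions with diabetes, by 0.42 in KO and -0.14 in WT on the log2 scale, so its diabetes difference in KO minus that in WT was 0.56. With 1 array per group this was not tested. Over all genes, 47.8% lay above 0 in KO and 50.1% in WT, and the share with opposite signs is not given here. Among the other sterol enzymes, also untested, signs were opposite for Tm7sf2 (0.02 in KO and -0.29 in WT, apart by 0.31). They were opposite too for Nsdhl (0.16 in KO and -0.02 in WT, apart by 0.18) and Mvk (0.03 in KO and -0.04 in WT, apart by 0.072). Dhcr7 ran the other way, at -0.04 in KO and 0.20 in WT, a difference of -0.23. For each of these 5 genes but Msmo1, at least 1 of the diabetes differences was under the spot spread of 0.136. The WT difference of Msmo1 was close to that spread, and it was -0.10 under cyclic loess normalization.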

How the results depend on the processing

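No single enzyme's difference changed sign under any setting. The 4 enzymes' median for DM-KO minus DM-WT (0.53) lay between 0.52 and 0.65 under 7 alternatives. Their median for DM-WT minus ND-WT (0.01) lay between -0.05 and 0.04 and fell below 0 under median scaling and with edge spots left out. Of the other sterol enzymes, those above 0 numbered 7 to 8 for DM-KO minus DM-WT, 4 to 7 for ND-KO minus ND-WT, 4 to 5 for DM-KO minus ND-KO and 1 to 3 for DM-WT minus ND-WT. Counts of all genes past 1.5-fold did move. Those counts were 112 for DM-KO with DM-WT, 39 for ND-KO with ND-WT, 66 for DM-KO with ND-KO and 159 for DM-WT with ND-WT. In the same order they became 268, 148, 194 and 400 with the value table, 186, 78, 115 and 264 with a normexp offset of 16, and 26, 6, 12 and 37 at 2-fold. With no filter on dim probes the first became 169. Genes higher and lower numbered 47 and 65 for DM-KO with DM-WT but 62 and 48 under median scaling. For DM-WT with ND-WT they numbered 106 and 53, but 69 and 124 under median scaling and 212 and 188 with the value table. For ND-KO with ND-WT they numbered 11 and 28, but 66 and 82 with the value table. Limma's calls for diabetes (1) became 82 under median scaling and 95 with edge spots left out. They became 0 with the value table, without background correction, with offset 16, with a trended variance or with no covariate. Those for genotype (3) became 14 under median scaling, 12 with edge spots left out, 0 with the value table and 1 with offset 16. The cause of these shifts was not tested. No paired analysis was possible because each group has 1 array. Signal over background limits Sqle most, at net intensities of 48.8 to 100 beside local backgrounds of 45 to 47. Its DM-KO minus DM-WT difference of 0.39 became 0.53 with offset 16 and 0.65 with the value table.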
